A study of Mus musculus with 6 samples.

Results

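The regions described here are the ATAC-seq peaks of 2 stretches of mouse chromosome 10, 6 Mb from 54 to 60 Mb and 9 Mb that begin 3.6 Mb before and end 2.1 Mb after the second block described below (GRCm38), in subependymal neural stem cell cultures. The stretches were chosen by a measured value, the share of peaks that replicate 1 of both culture states holds there, so every comparison of replicate 1 with replicates 2 and 4 below is a description with no test. Together they hold 3512 of the 439465 peaks in the 6 peak lists, of which 1994 lie inside 2 narrower blocks mapped below. ATAC-seq marks open chromatin by inserting sequencing adapters with the transposase Tn5, and a peak is a place where reads from such insertions pile up above the local background.

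All 6 libraries came from adult neural stem cells of the brain subependymal zone of 10-week-old mice homozygous for a CRISPR-Cas9 deletion of Srr2 (Srr2del/del), an enhancer downstream of the stem cell transcription factor gene Sox2. In the PROLIF state, cells were kept on Matrigel for 2 days in vitro (2 DIV) with the mitogen FGF, as the treatment notes and methods have it, although the design text of the series speaks of neurospheres at 3 DIV. In the DIFF state, mitogens were removed after those 2 days and cells were grown for 1 more day with serum (2+1 DIV). Each state had 3 libraries, numbered 1, 2 and 4, and wild-type cultures were not analysed here. The deletion was bred from more than one founder, and the founder strain and animal behind each library are not given in the sources used here. A treatment label calls the material RNA, whereas the molecule and library fields give genomic DNA. The series calls its replicates biological without tying them to animals, so p-values measure the spread between these libraries only, which may be technical.

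The peak lists held between 60006 and 88039 peaks. PROLIF 1 had the longest list of its state (82741) and DIFF 1 (71308) the middle one, and read totals are unknown. Peak names in the lists carry a number of the duplicate-marking step, which was 227 and 231 in PROLIF 1 and DIFF 1, 297 in PROLIF 4 and 606 to 614 in the other libraries, and its part in the results was not tested. Promoters of Nes, Sox9, Vim, Slc1a3, Olig2 and Fabp7, which mark neural stem and progenitor cells, had a peak in all 6 libraries. No library had a promoter peak at the microglial genes Ptprc, Cx3cr1 and C1qa or at endothelial Cdh5. Endothelial Kdr and neuronal Snap25 had one in all 6 libraries and neuronal Rbfox3 in all but PROLIF 4.

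Block A holds Gja1, the gene of the gap junction protein connexin 43 of astrocytes and neural stem cells, and Hsf2, which encodes a heat shock transcription factor. Block B holds Mdm2, whose protein is the ubiquitin ligase that keeps p53 low, and Frs2, whose protein docks signalling factors to activated FGF receptors. A promoter of a widely expressed gene is usually open in most cells of a culture, whereas many distal elements are open in fewer cells. Peak lists do not measure the share of cells. The peak caller sets the height of each peak against the local background, so a weak site is called only where it stands clear of its surroundings.

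The sequences below show examples of new and shared sites, which are the highest-ranked of each kind and not typical ones. A new site here is a region with a peak in both replicate 1 libraries and in none of the other 4, and a shared site is one with a peak in all 6. Each is given 5′ to 3′ on the plus strand of GRCm38 for 201 bases centred on the summit of its strongest peak, from the RefSeq copy of that assembly. Capitals mark matches, on either strand, to TTGGCA (NFI family) or ACAANG (SOX family). The first 3 new sites in order of rank lie in an intron of Cpm (chr10:117682585-117682785), in an intron of the long non-coding RNA gene Ifngas1 (chr10:118546037-118546237), and between Lyz1 and Cpsf6 (chr10:117330612-117330812). The first 2 shared sites, ranked by the lower of the pileup ratios of replicate 1 in PROLIF and DIFF, lie between genes near Tspan8 (chr10:115778703-115778903) and in an intron of Myrfl (chr10:116853553-116853753).
New site in Cpm: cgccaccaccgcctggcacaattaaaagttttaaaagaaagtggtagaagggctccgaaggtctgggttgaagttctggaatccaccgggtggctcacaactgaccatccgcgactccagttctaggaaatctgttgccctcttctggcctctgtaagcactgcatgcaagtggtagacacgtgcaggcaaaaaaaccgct
New site in Ifngas1: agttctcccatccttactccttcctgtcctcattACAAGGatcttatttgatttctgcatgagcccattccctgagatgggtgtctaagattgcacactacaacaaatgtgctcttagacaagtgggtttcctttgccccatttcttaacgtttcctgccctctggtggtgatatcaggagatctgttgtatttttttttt
New site near Lyz1: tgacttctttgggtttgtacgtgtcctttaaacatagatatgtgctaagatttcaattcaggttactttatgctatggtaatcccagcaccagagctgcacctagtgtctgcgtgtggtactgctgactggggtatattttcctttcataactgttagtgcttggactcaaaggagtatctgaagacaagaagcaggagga
Shared site near Tspan8: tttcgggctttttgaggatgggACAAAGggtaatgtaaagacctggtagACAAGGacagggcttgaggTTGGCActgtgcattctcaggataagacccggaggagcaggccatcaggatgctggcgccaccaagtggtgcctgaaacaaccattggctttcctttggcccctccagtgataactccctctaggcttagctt
Shared site in Myrfl: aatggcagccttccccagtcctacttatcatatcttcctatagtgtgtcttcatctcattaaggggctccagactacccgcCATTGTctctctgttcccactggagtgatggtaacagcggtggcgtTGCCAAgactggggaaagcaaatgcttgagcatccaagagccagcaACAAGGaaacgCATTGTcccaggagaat

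The edges of the raised blocks were mapped first. In each 100 kb bin the number of peaks of replicate 1 was set against the number expected from the mean share of replicates 2 and 4 of the same state. A bin was raised where the ratio, with 0.5 added to both numbers, was at least 2 in both states, and a block was a run of at least 3 raised bins with gaps of at most 3 bins. Over the genome 162 of 22854 bins with a peak were raised (0.709%), and 59 of these were on chromosome 10. The same rule gave 39 bins (0.171%) with replicate 2 and 172 bins (0.753%) with replicate 4 in the place of replicate 1, so the number of single raised bins did not set replicate 1 apart. Runs did. Replicate 1 had 2 runs in the genome, both on chromosome 10, of 23 and 28 raised bins. Replicate 2 had none, and replicate 4 had 2 short ones, of 3 and 4 raised bins, on chromosomes 1 and 7.

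Block A spanned 54.9 to 57.7 Mb, a length of 2.8 Mb or 28 bins. Block B spanned 115.6 to 118.9 Mb, 3.3 Mb or 33 bins. In bins, PROLIF and DIFF taken singly gave the same edges for both blocks, although PROLIF alone added 2 shorter runs at 113 to 113.9 Mb and 114.7 to 115 Mb. Taken peak by peak, the run in block A went from 54558839 to 57433004 in PROLIF and from 54982822 to 57722000 in DIFF. Among the strongest 20000 peaks of each list, 0.5 Mb of block A and 0.7 Mb of block B met the rule, with fewer peaks per bin, and with lists of equal length 1.5 Mb of block A did.

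Inside block A, PROLIF 1 had 263 peaks against 49 in PROLIF 2 and 41 in PROLIF 4. DIFF 1 had 314 against 51 in DIFF 2 and 59 in DIFF 4. Inside block B the counts were 424 in PROLIF 1 against 79 in PROLIF 2 and 103 in PROLIF 4, and 375 in DIFF 1 against 87 in DIFF 2 and 149 in DIFF 4. As a share of each list, both blocks together held 0.83% of PROLIF 1 and 0.966% of DIFF 1, and between 0.192% and 0.24% of each of the other 4 libraries. The share in replicate 1 was thus 3.84 times that in replicates 2 and 4 in PROLIF and 4.48 times in DIFF. Taken singly, block A had ratios of 4.48 in PROLIF and 6.33 in DIFF, and block B 3.53 and 3.6. With every list limited to the length of the shortest, the ratio for both blocks was 2.44 in PROLIF and 3.53 in DIFF, and among the strongest 20000 peaks of each list it was 2.34 and 2.91. In the rest of both stretches the ratio over all peaks was 1.07 in PROLIF and 0.976 in DIFF. All other peaks of chromosome 10 made up 4.5% to 4.79% of every list.

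**Figure D1:**
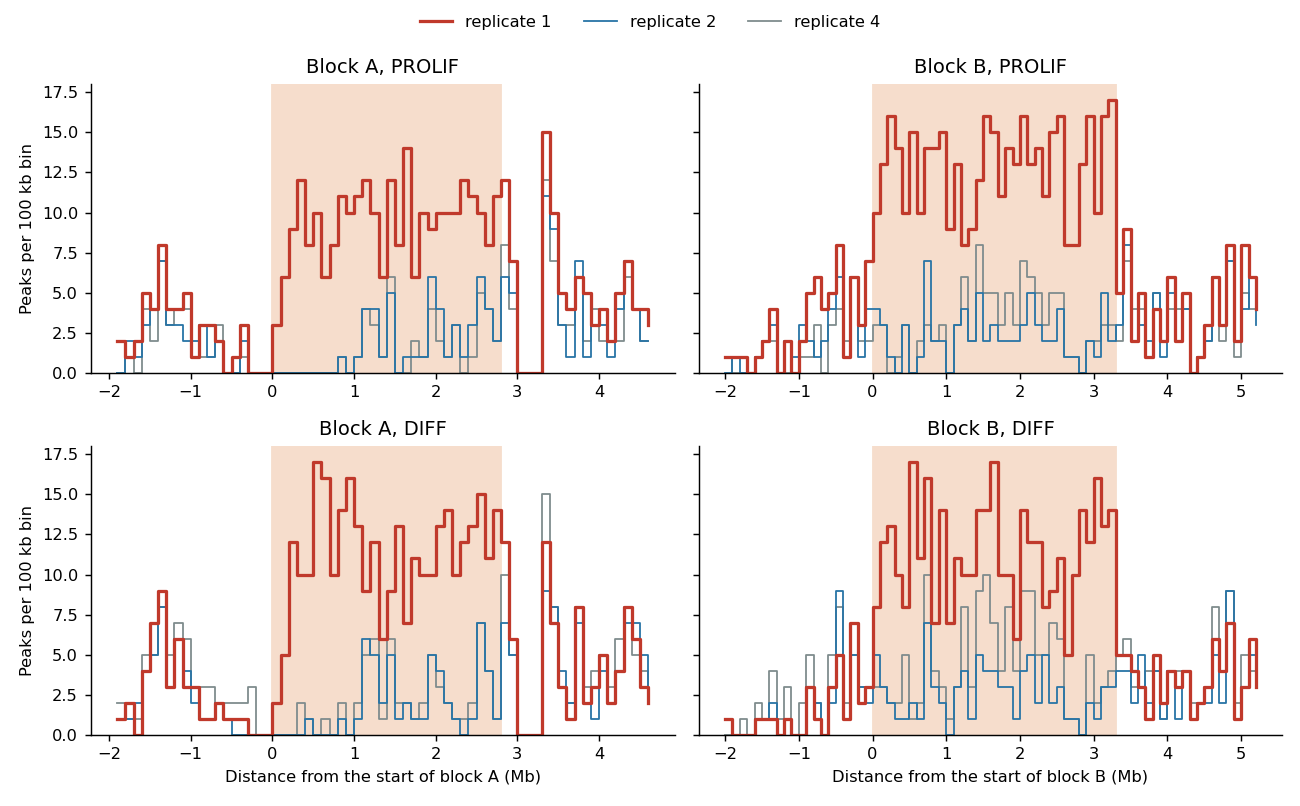
Number of peaks in each 100 kb bin (y axis) against distance from the start of each block in Mb (x axis), for block A (left) and block B (right) in PROLIF (top) and DIFF (bottom), 1 line per library, with the mapped block shaded. Replicate 1 (red) leaves the other libraries at the block edges and returns to them outside, and the stretch with no peaks just after block A in every library holds a gap in the assembly.

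The counts changed from one bin to the next at the edges. The first bin of block A, at 54.9 Mb, held 3 peaks of PROLIF 1 and 2 of DIFF 1 and none of the others, and no library had a peak in the 2 bins before it. The last raised bin of block A, at 57.6 Mb, had ratios of 3.69 in PROLIF and 10.3 in DIFF, and the next bin 1.28 and 1.55. Block B began with a bin just inside the threshold, with ratios of 2.08 and 2.01, after a bin at 1.72 and 1.29. It ended with a bin at 4.59 and 3.99, followed by one at 1.47 and 1.21. The left edge of block A was the least certain, because replicates 2 and 4 had few peaks on either side of it.

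Signal height placed some edges more finely than peak number did. The pileup at a site, the number of overlapping reads or fragments at its summit, was solved from the fold and the p-value of each peak and scaled between libraries on 37149 sites that all 6 shared on the other autosomes. The last shared site before the rise, at 115637930, lay in the first bin of block B. Its scaled pileup in replicate 1 was 1.85 times that of replicates 2 and 4 in PROLIF and 0.968 times in DIFF. The next one, at 115664684, stood at 3.37 and 6.1 times. On the right side the pileup was 2.63 and 4.44 times at 118869449, the promoter of Dyrk2, and 1.09 and 1.23 times at 118961894. By pileup the edges of block B thus fell between these pairs of sites, in the intervals of 115638049 to 115664140 and 118870529 to 118961547. Sites new in both replicate 1 libraries lay in the right interval at 118905298 and 118918657, past the bin edge. Taken peak by peak, with both states together, the run ended at 118918756.

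For block A the pileup moved the right edge outward from the bin edge. The 6 shared sites between 57727914 and 57794746 lay outside the last raised bin but had pileup ratios of 2.25 to 4.23 in PROLIF and 2.5 to 3.5 in DIFF. The next shared site, at 57822650, had 1.3 and 0.926. A site new in both replicate 1 libraries lay between these, at 57812892. This extension holds the promoters of Fabp7, whose protein is a fatty acid-binding protein of radial glia and neural stem cells, and Smpdl3a, which encodes a phosphodiesterase. An assembly gap of 343058 bases begins at 57862808, beyond the site where the ratio had fallen back to near 1. On the left, no shared site lay between 54271843 (ratios of 0.996 and 1.17) and 55767783 (2.6 and 4.95), and with both states together the first peak of the run taken peak by peak was at 54982822.

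**Figure D2:**
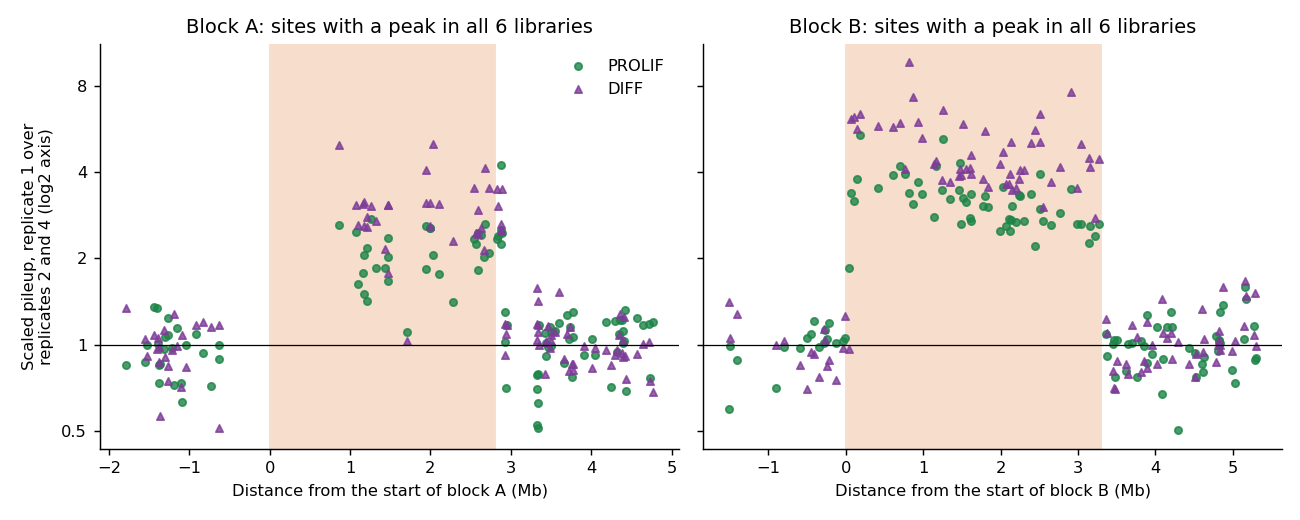
Scaled pileup of replicate 1 divided by the geometric mean of replicates 2 and 4 of the same state (y axis, log2 scale) at sites with a peak in all 6 libraries, against distance from the start of each block in Mb (x axis), with circles for PROLIF and triangles for DIFF and the mapped block shaded. Sites inside block B stand near 3.12 in PROLIF and 4.26 in DIFF, those inside block A near 2.06 and 3.01, and those outside near 1, with raised sites running on just past the right edge of block A.

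Whether the extra peaks were new or shared was then asked peak by peak, where a new peak is one that overlaps no peak of a library with another number and a shared peak is any other. In PROLIF 1, 475 of the 687 block peaks overlapped no peak of replicates 2 and 4 of either state (69.1%), and in DIFF 1 477 of 689 (69.2%). Over the whole lists the share was 13.4% in PROLIF 1 and 7.45% in DIFF 1. The blocks were mapped on an excess of replicate 1 peaks, so a high share of new ones follows in part from that choice. New peaks made up a larger percent of the peaks of block A than of block B, 75.7% against 65.1% in PROLIF 1 and 79.6% against 60.5% in DIFF 1. In number, block A had 199 and block B 276 in PROLIF 1, and 250 and 227 in DIFF 1. By the same measure each of the other libraries had between 1 and 14 block peaks that no library of another number shared.

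**Figure D3:**
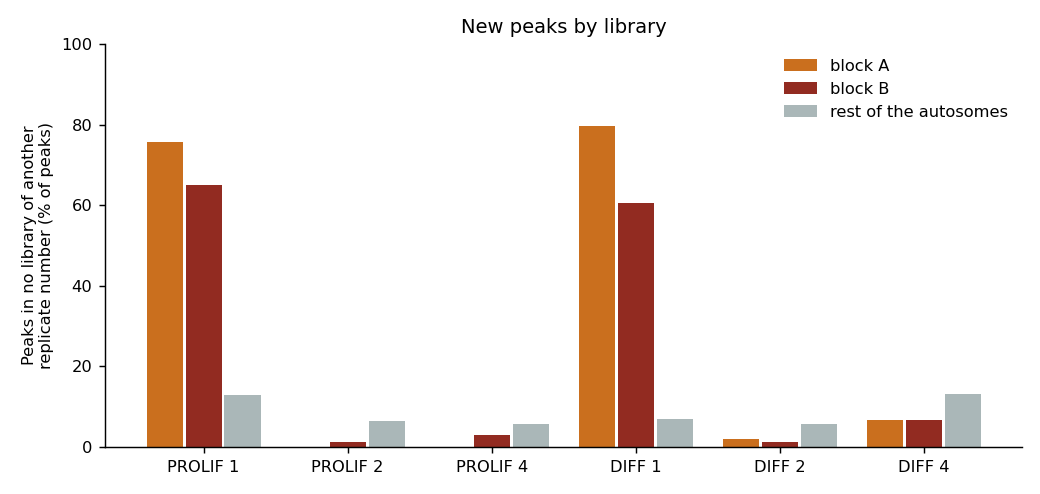
Percent of the peaks of each library that overlap no peak in any library with another replicate number (y axis, from 0), for block A, block B and the rest of the autosomes. The bars of PROLIF 1 and DIFF 1 stand between 60.5% and 79.6% inside the blocks, and those of the other 4 libraries at no more than 6.78% there.

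New peaks were weaker than shared ones, inside the blocks and elsewhere. The median new peak of the blocks stood at percentile 15.2 of its list by p-value in PROLIF 1 and 16.3 in DIFF 1, and the median shared peak at 74.7 and 74.2. Elsewhere on the autosomes new peaks of the same libraries stood at 12.9 and 7.66, and shared peaks at 56.6 and 53.7. New peaks of the blocks had a median width of 166 and 175 bp, against 534 and 564 bp for shared peaks there and 125 and 126 bp for new peaks elsewhere. They lay within 3 kb of a start site in 10.9% and 11.1% of cases, against 27.8% and 28.8% of the shared peaks.

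Most of the new regions were found in a single library. After overlapping peaks were merged, the blocks held 998 regions. In 84 of them every library had a peak, 172 had one in both replicate 1 libraries alone and 589 in a single one of them, 291 in PROLIF 1 and 298 in DIFF 1. The 172 were 17.2% of the block regions, whereas such regions were 892 of 120143 over all regions (0.742%). Among new peaks of the blocks, 38.7% in PROLIF 1 and 37.5% in DIFF 1 were met by a peak of the other replicate 1 library, against 7.6% and 17.8% for new peaks elsewhere. Regions that replicates 2 and 4 held were nearly all present in replicate 1 as well, 216 of 237 (91.1%) in the blocks against 74.5% on the rest of the autosomes. No block region was held by both libraries of replicate 2 alone or of replicate 4 alone. On the rest of the autosomes such regions were also rare, 0.172% and 0.497%, so their absence sets the blocks little apart.

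The 5 highest-ranked of the 172 new regions all lay in block B, in introns of Cpm, Ifngas1, Mdm1 and Ptprr and between Lyz1 and Cpsf6. The site in Cpm, the gene of carboxypeptidase M, had an unscaled pileup of 54 in PROLIF 1 and 67 in DIFF 1, at percentiles 72.2 and 68.6, and no peak in the other 4 libraries. The site in Ifngas1 had pileups of 46 and 69 at percentiles 66.1 and 73. Over all 172, the lower of the 2 percentiles had a median of 15.8, so these are the strongest cases and not typical ones.

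New sites had a lower GC content than shared ones both inside the blocks and elsewhere. The summits of new block sites had a median GC content of 46.8% over 201 bases (quartiles 43.3% and 50.7%), against 51.7% (47.1% and 61.9%) at the shared sites of the blocks. Elsewhere on the autosomes new sites had 50.2% and shared sites 54.2%. Repeat-masked bases made up 19% of the new block sites, 9.94% of the shared sites of the blocks, 14.4% of new sites elsewhere and 8.42% of shared sites elsewhere. The whole sequence had 38.5% GC and 40.9% repeats in block A, and 43.3% and 30% in block B. All of chromosome 10 had 41.4% and 34%, between the blocks. New sites differed by block as well, with a median GC of 44.8% and 22.4% repeats in block A, and 48.8% and 16.3% in block B.

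Sequence motifs were counted within 100 bp of the summit on both strands. The AP-1 motif, TGACTCA or TGAGTCA, was in 14 of 172 new block sites (8.14%), in 4.32% of new sites elsewhere and in 4.58% of sites shared elsewhere. It was in 3.57% of the shared block sites. The SOX-type motif ACAANG was in 41.3% of new block sites and 51.2% of shared block sites, and in 41.6% of new sites and 35.9% of shared sites elsewhere. The E-boxes CAGCTG and CAGATG, bound by basic helix-loop-helix factors, were in 22.7% and 15.1% of new block sites, 14.3% and 13.1% of shared block sites, 24.4% and 19.5% of new sites elsewhere and 21% and 14.7% of shared sites elsewhere. In the same order, TTGGCA was in 14%, 19%, 21.5% and 17.1%. These shares are descriptions of the letters and were not tested.

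At the sites that all 6 libraries shared, replicate 1 had the higher pileup. In PROLIF the 84 shared block sites had a median pileup ratio of 2.66 (quartiles 2.25 and 3.31), and all 84 were above 1. In DIFF the median was 3.92 (3.08 and 5.01) and 83 were above 1. The exception was the site at 115637930, inside the first bin of block B but before its left edge by pileup. The ratio was at least 2 at 84.5% and 96.4% of these sites, against 0.286% and 0.356% over all 40159 sites shared by the 6 libraries. On the other autosomes the median was 1.01 in both states. Block B exceeded block A in both states, with 3.12 against 2.06 in PROLIF and 4.26 against 3.01 in DIFF.

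The shared site near Tspan8 had the highest ratios of the blocks by the lower of both states, 5.36 in PROLIF and 6.38 in DIFF. Its scaled pileup was 88.1 in PROLIF 1 against 15 and 18 in PROLIF 2 and 4, and 123 in DIFF 1 against 24.2 and 15.5 in DIFF 2 and 4. The site in Myrfl had ratios of 5.22 and 6.55, from 205 in PROLIF 1 against 42.6 and 36.1, and 265 in DIFF 1 against 31.3 and 52.3. Replicate 1 stood far above the others at both. Sites in Frs2 (4.3 and 4.11), in Ptprb (4.21 and 5.94) and between genes at 116768831 (4.19 and 4.37) followed. In DIFF alone the largest ratio, 9.63, was at 116416360, where PROLIF had 3.37.

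Along each block the median ratio of successive stretches of equal length stayed above 1. In block B the median ratio was 3.51, 3.04 and 2.69 in PROLIF from its first to its last stretch, and 5.94, 4.02 and 4.17 in DIFF. In block A the middle and last stretches had 1.85 and 2.25 in PROLIF, and 2.75 and 3.1 in DIFF. Its first stretch held a single shared site, and the site at 56612060 in the middle one had ratios of only 1.11 and 1.03.

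The local background under the peaks rose with the pileup in replicate 1. This background is the pileup that the caller expects from the surroundings of a peak, given here relative to percentile 1 of the same library. In block B the median was 2.2 in PROLIF 1 and 3.69 in DIFF 1, and between 1 and 1.11 in the other 4 libraries. In block A it was 1.18 in PROLIF 1 and 1.62 in DIFF 1, and 1 in the others. On the rest of the autosomes it was between 1 and 1.08 in every library. These medians cover all peaks of a library, and in replicate 1 most block peaks were new and weak. At the 30 shared sites of block A the median was 2.31 in PROLIF 1 and 2.76 in DIFF 1. The other 4 libraries had 1 to 1.08 there. At the 54 shared sites of block B it was 4.79 and 6.64, against 1.09 to 1.42 in the other 4. This background can also be high at a strong site in other libraries, such as 4.3 at the Hsf2 promoter in PROLIF 2. At new peaks it was 1.1 in PROLIF 1 and 1.58 in DIFF 1 in block A, and 2.03 and 3.38 in block B. On the rest of the autosomes its lower quartile was 1 in every library, so values near 1 lie at the lowest level it takes. Peak number, pileup and local background rose over the same stretches, and more open chromatin at the sites and higher coverage of the whole stretch cannot be told apart in peak lists.

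**Figure D4:**
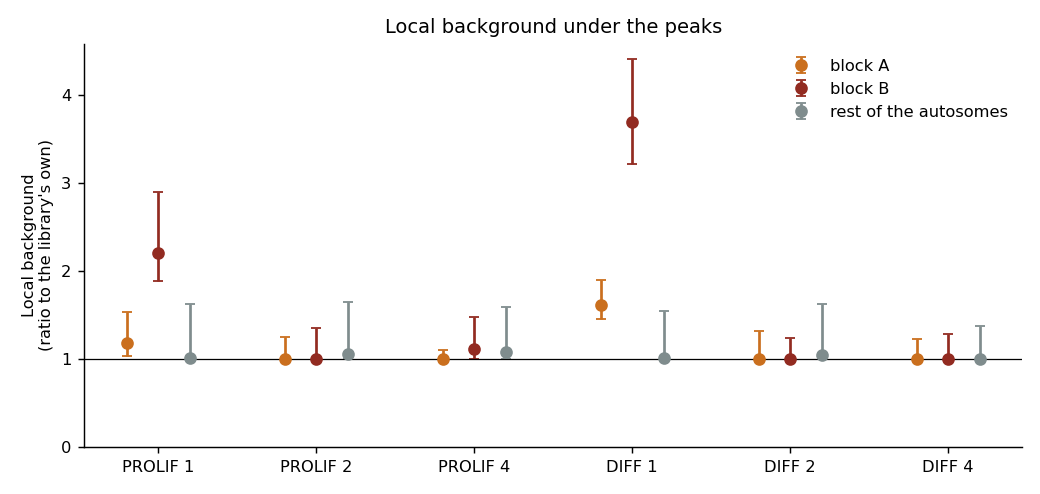
Median local background of the peaks of each library, relative to the level of percentile 1 of that library (y axis, from 0), for block A, block B and the rest of the autosomes; bars run from the lower to the upper quartile over peaks. Block B stands at 2.2 in PROLIF 1 and 3.69 in DIFF 1, and block A at 1.18 and 1.62, with the other libraries near 1. Each median covers all peaks of its library, so the sites compared differ between libraries.

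Set against that background, the block sites stood close to other sites. The fold of a peak, its pileup plus 1 over its local background plus 1, had a median ratio of 1.34 between replicate 1 and replicates 2 and 4 at the block sites in PROLIF, where the other autosomes had 1.25. In DIFF the ratio was 0.952 at the block sites and 0.896 on the other autosomes.

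The annotation places 42 protein-coding genes with a start site inside the blocks, 6 in block A and 36 in block B, among 25 and 87 annotated genes of any type. A promoter peak here is a peak within 3 kb of any annotated start of the gene. Of the 42 genes, 23 had one in all 6 libraries (54.8%, against 64.4% of 21938 genes in the genome), 10 in replicate 1 libraries alone, 4 in a mixture and 5 in none. The 10 were 23.8% of the genes, and 1.42% of all genes had this pattern. All 10 were in block B. Only Tspan8, Ifng and Gm9040 had the peak in both replicate 1 libraries, a pattern of 0.182% of all genes. The rest of the 10 had it in a single replicate 1 library. Of the 22 genes within 1 Mb outside the blocks, each had a promoter peak in all 6 libraries.

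All 6 genes of block A had an open promoter in every library. At Gja1 the scaled pileup was 123 in PROLIF 1 against 73.7 and 73.6 in PROLIF 2 and 4, and 135 in DIFF 1 against 47.4 and 40.6 in DIFF 2 and 4. At Hsf2 it was 413 against 226 and 228, and 542 against 214 and 231, in the same order. Replicate 1 was the highest of its state at both genes and did not overlap the others. Serinc1, which encodes a membrane protein of the serine incorporator family, had 318 against 148 and 117 in PROLIF, and 332 against 126 and 134 in DIFF. Pkib, the gene of a protein kinase A inhibitor and the last one before the right edge in bins, had 118 against 64.5 and 55.5, and 173 against 45.4 and 53.5. The first gene of the block was Msl3l2, at 56106917, and replicate 1 was the highest there as well, with ratios of 1.43 in PROLIF and 2.57 in DIFF. Before the left edge lay Man1a, a mannosidase gene of the Golgi, at 54076609, which had 133 against 161 and 125 in PROLIF, and 141 against 118 and 117 in DIFF. Fabp7, beyond the right edge in bins, had 269.5 against 127 and 114, and 356 against 130.1 and 139.

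Genes of the p53 pathway and cell cycle in block B were Mdm2, Mdm1 and Dyrk2. The Mdm2 promoter had a scaled pileup of 356 in PROLIF 1 against 114 and 149 in PROLIF 2 and 4, and 546 in DIFF 1 against 129 and 176 in DIFF 2 and 4. Mdm1, whose protein binds microtubules of the centriole, had the highest promoter pileup of the block, with 806 against 261 and 343 in PROLIF, and 1044 against 305 and 389 in DIFF. Dyrk2, the gene of a protein kinase and the last one before the right edge, had 271 against 102 and 104, and 399.96 against 99.8 and 81.3. All 3 promoters were open in every library and highest in replicate 1. Cand1, a regulator of cullin ubiquitin ligases and the first gene beyond that edge, had 171 against 165 and 173 in PROLIF, and 155 against 185 and 209.7 in DIFF. Replicate 1 thus lay between the others there in PROLIF and below them in DIFF.

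Signalling genes followed the same order. Frs2 had 334 in PROLIF 1 against 84.0 and 133, and 504 in DIFF 1 against 97.8 and 156. Rap1b, which encodes a small GTPase of the Ras family, had 582 against 161 and 194, and 809 against 185 and 214. The receptor tyrosine phosphatase genes Ptprr and Ptprb had ratios of 3.51 and 4.21 in PROLIF and 5.77 and 5.94 in DIFF. The Ptprb value is that of the shared site in Ptprb given above, which lies inside the gene near an annotated start other than the first. Rab3ip, an activator of Rab GTPases, had 3.21 in PROLIF and 3.68 in DIFF. Lgr5, the receptor for R-spondins that marks stem cells in several tissues, lay just before the left edge. It had 81.0 in PROLIF 1 against 92.1 and 63.8, and 66.5 in DIFF 1 against 50.4 and 55.5. Tspan8, the first gene inside, had a promoter peak in PROLIF 1 and DIFF 1 alone, with scaled pileups of 57.8 and 51.7.

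Genes of chromatin, RNA and protein handling included Yeats4, whose protein reads acetylated histones. It had 277 in PROLIF 1 against 101 and 104, and 420.01 in DIFF 1 against 88.7 and 128. Cnot2, a subunit of the CCR4-NOT deadenylase, had 209.9 against 64.5 and 61.1, and 323 against 67.6 and 55.5. Cpsf6 of the mRNA 3′ end machinery, the nucleoporin gene Nup107 and the chaperonin gene Cct2 had ratios of 3.04, 2.68 and 3.47 in PROLIF and 3.79, 3.51 and 3.87 in DIFF. Replicate 1 did not overlap the other libraries of its state at any of these 5 genes.

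Kcnmb4, a subunit gene of neuronal calcium-activated potassium channels, had the largest promoter ratio of block B in DIFF, 7.29. Its scaled pileup was 154 in PROLIF 1 against 46.0 and 54.1, and 379.9 in DIFF 1 against 55.5 and 49.0. Cpm had ratios of 3.56 in PROLIF and 4.70 in DIFF. Over the 23 genes with a promoter peak in all 6 libraries, the ratio was above 1 in both states. It ran from 1.43 to 2.42 in PROLIF and from 2.44 to 3.51 in DIFF over the genes of block A, and from 2.63 to 4.21 and from 3.03 to 7.29 in block B.

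The 22 genes within 1 Mb outside the blocks, Fabp7 and Smpdl3a among them, had median ratios of 1.05 in PROLIF and 1.01 in DIFF. The 20 beyond the outermost raised site had 1.04 and 0.985. That site was itself set by the pileup ratio, so values near 1 at these 20 follow in part from that choice. The listed ones after block A were Lims1, a focal adhesion gene (1.10 and 0.79), the nucleoporin gene Ranbp2 (1.12 and 1.11) and Edar, the ectodysplasin receptor gene (1.07 and 0.82). Before block B lay Trhde (0.98 and 1.03), the serotonin synthesis gene Tph2 (1.21 and 0.93), Tbc1d15 (0.99 and 0.77), the Rab GTPase gene Rab21 (1.02 and 1.14) and Zfc3h1 (1.19 and 0.89). After it, beyond Cand1, lay Grip1, which encodes a scaffold of glutamate receptors (0.99 and 0.90). None of these 9 reached a ratio of 2 in either state.

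**Figure D5:**
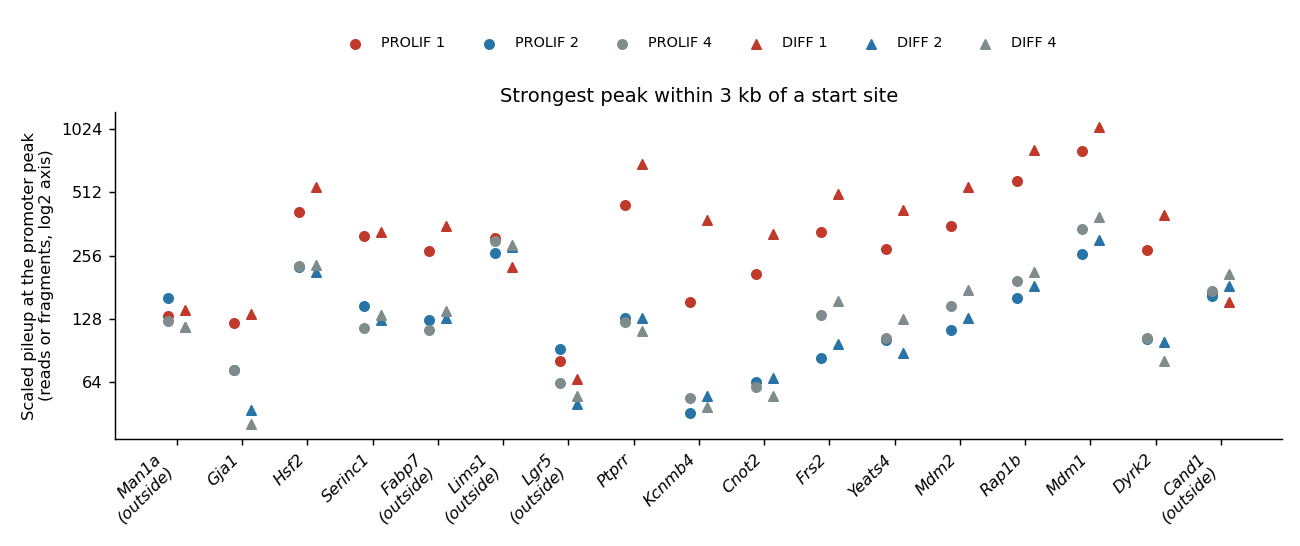
Scaled pileup in reads or fragments (y axis, log2 scale) of the strongest peak within 3 kb of a start site, 1 point per library, for 17 genes in order along the chromosome, with genes outside the mapped blocks named as such. Replicate 1 (red) stands above replicates 2 and 4 of its state at every gene inside the blocks and at Fabp7, whereas in PROLIF it lies between them at Man1a, Lgr5 and Cand1.

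Lysozyme and cytokine genes of block B, which serve immune cells, were listed together with Cpm and Best3. Cpm had a promoter peak in all 6 libraries, with the ratios given above. None of Lyz1, Lyz2, Ifng, Il22 and Best3 did. Ifng, the gene of interferon gamma, had a promoter peak in PROLIF 1 and DIFF 1 only, at percentiles 56.2 and 74.3 of the lists. Il22 had none in any library, and its paralogue Iltifb a single peak, in DIFF 1, at percentile 0.966. Lyz2 had a promoter peak in the 3 DIFF libraries, with a scaled pileup of 88.6 against 14.1 and 18.7, and Lyz1 in PROLIF 1, DIFF 1 and DIFF 4. Best3, an anion channel gene, had one in the same libraries as Lyz1. Lyz1 and Lyz2 are near-identical paralogs, and the genes Gm9040 to Gm9049 form a tandem family, so reads there could be assigned to the wrong copy.

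The states were then compared. The regions were chosen and mapped on the shares of both states, so the share of peaks inside the blocks is given with no test. It was 0.421% ± 0.355 (SD, n = 3) in PROLIF and 0.466% ± 0.434 (SD, n = 3) in DIFF, a difference of 0.0451 percentage points, and without replicate 1 of both states the difference was -0.000336. The number of genes with a promoter peak follows the number of block peaks, so it is also given with no test. Widths and positions of the peaks were tested, although these too rest on the peaks inside blocks mapped in both states. With 3 libraries against 3, the smallest two-sided p that the exact permutation test allows is 0.1. Genes of the blocks with a promoter peak averaged 25.7 ± 3.79 for PROLIF and 29 ± 6.25 for DIFF (SD, n = 3). DIFF 1 had 36 such genes and PROLIF 1 had 30, whereas the other 4 libraries had 23 to 27. The median width of block peaks was 289 ± 68.8 bp and 282.5 ± 62 bp (exact permutation p = 0.8, n = 3). The share of block peaks within 3 kb of a start site was 25.3% ± 7.91 and 26.9% ± 9.04 (exact permutation p = 0.5, n = 3). None of these differences exceeded the spread between libraries, and in both states replicate 1 had the highest share, the most genes, the smallest width and the lowest share near start sites.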

How the data were processed

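Per the study's methods and labels, the authors used Cutadapt for adapters and Trimmomatic for low-quality ends, without reads under 20 bases. Alignment to GRCm38 (mm10) was by Bowtie2, duplicate marking by Picard, and peak calling by MACS2 (narrow, no model, false discovery rate 0.05). Each deposited list holds the peaks of 1 library. Tool versions, read extension and Tn5 shift are not given in the sources used here. Each peak in the deposited lists has a score, a fold over local background (a ratio) and −log10 p- and q-values. From the deposited fold and −log10 p-value, pileup and local background were solved under the Poisson model of the caller; at least 99.98% of peaks gave whole pileups (within 0.05). Read totals were not given, so the depth is unknown. Peaks were placed by summit and shared when they overlapped by 1 bp or more. Size factors were median ratios to the geometric mean over shared autosomal sites off chromosome 10, and pileup ratios compare replicate 1 with the geometric mean of replicates 2 and 4. Genes came from GENCODE vM21 (GRCm38), sequence from RefSeq. States were compared by two-sided exact permutation over libraries. The share of peaks inside the blocks, which the choice of regions had used, and the number of genes, which follows it, are given without a test.

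Named were genes of fixed functional lists inside a block or within 1 Mb of one, the genes on either side of each edge, the 5 new regions with the highest lower percentile, and the 5 shared regions with the largest lower pileup ratio of both states; the sites at 56612060 and 116416360 were chosen after their values were seen. Msl3l2, Serinc1, Pkib, Smpdl3a, Myrfl, Ifngas1 and Iltifb were named for their position or pattern. Members, lists and tests were chosen with earlier results of these data known. Other bin widths, thresholds, list lengths, overlaps, promoter distances and scalings were tried, as was leaving out each library; edges between single peaks and ratios for each block alone were added after seeing the data. The scripts were tested on simulated data and ran in Python 3.11.15 with numpy 2.4.6, pandas 2.3.3, scipy 1.17.1 and pysam 0.24.0.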

Additional observations from a re-analysis of the deposited data

How the results depend on the processing

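The raised length of block A (2.8 Mb) was 2.6 Mb with 200 kb bins, 1.5 Mb with lists of equal length and 0.5 Mb with the strongest 20000 peaks of each list. That of block B (3.3 Mb) was 2 Mb at a threshold of 3 times, 2.5 Mb with equal lists, 0.7 Mb with the strongest 20000 and 2.9 to 3.2 Mb when 1 library of replicates 2 and 4 was left out. The ratio of shares (3.84 in PROLIF, 4.48 in DIFF) was 2.44 and 3.53 with equal lists, 2.34 and 2.91 with the strongest 20000, 4.48 and 6.33 in block A alone, 3.6 in DIFF in block B alone, and 3.46 to 4.32 and 4.09 to 4.95 without 1 library. The percent of new peaks was 48.2% and 62.7% with equal lists, 49% and 53.4% with the strongest 20000, and 70.01% to 73.4% and 70.2% to 74.2% without 1 library. The pileup ratio in PROLIF (2.66) was 3.68 when scaled by background pileup and 2.56 to 2.99 without 1 library. No setting turned the direction of these values; the cause of the moves was not tested.

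Differences between the states turned sign. Without 1 library, or without replicate 1 of both states, the difference in share, DIFF minus PROLIF, ran from -0.205 to 0.25 percentage points, that in genes from -0.167 to 5.83, that in median width from -42 to 26.9 bp, and that in the share near a start site from -2.93 to 6.79 percentage points. Both ends of the range in share came from leaving out replicate 1 of a single state. Width turned to 3.33 bp at q of at most 0.01 and 29.3 bp with equal lists, and the share near a start site to -0.301 within 1 kb. With the replicate number as a block (exact sign flips, smallest p 0.25), the difference in share stayed at 0.0451. The exact sign-flip p was 0.5 for width and 0.25 for the share near a start site. Within every replicate number, DIFF had more genes with a promoter peak and a higher share near a start site than PROLIF. The labels do not say whether a number marks a shared culture. Correlations of the deviations of same-numbered libraries over 37154 regions were 0.0427, 0.149 and 0.00958, and PROLIF 1 correlated best with DIFF 4, so the numbers were not taken as pairs, although both replicate 1 libraries had the raised blocks. Unknown depth limits how far weak peaks can be compared between libraries.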
